A study of Homo sapiens with 4 samples.

Results

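The mRNA levels of 9 heat-shock chaperones and of HSF1 were examined in paclitaxel-resistant and wild-type anaplastic thyroid cancer (ATC) cells. The 10 genes were taken by gene name from the 26485 gene names of the expression tables. The choice used no rule on their measured values, but earlier results of these data were known when it was made. They were HSP90AA1, HSPA8, HSPA1A, HSPA1B, HSPH1, DNAJB1 and HSPB1 of the cytosol, HSPD1 and HSPE1 of mitochondria, and the transcription factor gene HSF1. All 10 were above 0.5 FPKM in each of the 4 libraries, so none was lost to the filter on low values. FPKM counts aligned fragments per kilobase of transcript, scaled to the size of the library, so it compares levels between genes per length.

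Heat-shock chaperones bind unfolded proteins and help them to fold, stay soluble or be degraded. HSP90 and HSP70 proteins use ATP and work with co-chaperones, the small heat-shock protein HSPB1 holds unfolded clients without ATP, and HSPD1 with HSPE1 form the folding chamber of mitochondria. HSF1 is held inactive by chaperones in unstressed cells and, when freed by protein damage, binds heat-shock elements in the promoters of chaperone genes; its activity is set mainly by protein modification and location, which mRNA levels do not show.

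SW1736 and 8505C are established human cell lines derived from ATC. The wild-type (wt) groups were the parental lines, and the resistant groups, SW1736-PTX and 8505C-PTX, had been selected over 6 months with paclitaxel, a microtubule-stabilizing taxane, at doses raised from 1 nM to 1.5 µM. Resistant cells were then cultured with 1.5 µM of the drug, so that resistance and the presence of paclitaxel cannot be told apart. One mRNA library was made per condition (4 libraries in all), with no replicates, so no difference within a line could be compared with a spread between cultures or given a p-value. A test that treats the lines as replicates of each other was not run.

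The ratio of coverage to FPKM corresponded to between 3.27 and 4.34 Gb of aligned sequence per library, with the higher depth of each line in its PTX library. ABCB1, the drug efflux pump gene, was listed at 0 and 0.363 FPKM in the wt libraries of SW1736 and 8505C and at 302.3 and 497 in their PTX libraries, which separates the resistant from the wt libraries. Of the thyroid markers, TSHR and SLC5A5 were at 0 in every library and TG did not exceed 0.00586 FPKM, while EPCAM, CDH1, PTPRC and PECAM1 did not exceed 0.281. The epithelial keratins were abundant and higher in the PTX libraries, KRT8 with 331 and 973 FPKM in SW1736 and 440 and 974 in 8505C, and KRT18 with 257 and 1437, and 511 and 1240. Actin (ACTB) was lower, from 4905 to 1945 and from 4688 to 1560 FPKM, whereas the mesenchymal gene FN1 had 1133 and 103 in SW1736 and 91.7 and 270 in 8505C. CD68 was between 5.84 and 43.0 FPKM, lowest in SW1736 wt and highest in 8505C-PTX, and VIM between 1321 and 3684; the part of these genes in the results below was not tested. The other thyroid factors went against the line label of one library. For NKX2-1, SW1736 wt had 0 FPKM, whereas SW1736-PTX had 36.3, 8505C wt 30.5 and 8505C-PTX 39.0. PAX8 had 38.2 FPKM in SW1736 wt, and 0.206, 0.123 and 0.146 in these other libraries. FOXE1 had 26.6 FPKM in SW1736 wt and at most 0.511 elsewhere. The library labelled SW1736-PTX was therefore compared with SW1736 wt, as labelled, and also with 8505C wt, and for the 10 genes the value against each is given below.

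In the resistant libraries, 8 of the 9 chaperone mRNAs were lower than in both wt libraries, whereas HSPB1 and HSF1 were higher in both PTX libraries than in either wt library. Such a separation was common, since it was found downward in 26.5% and upward in 31.6% of the 14692 genes that passed 0.5 FPKM in any library. A gene was called when log2((PTX + 0.1)/(wt + 0.1)) of its FPKM was beyond 1.5 in either direction. In SW1736, 1 of the 10 genes was called down (HSP90AA1) and none up, against 10.2% of the 14202 genes compared called down and 15.7% called up (25.9% in all). In 8505C, 5 of the 10 were called down (HSP90AA1, HSPA8, HSPH1, HSPD1 and HSPE1) and none up, against 5.89% of 13794 genes called down and 15.0% called up (20.9% in all). The median log2 change of the 10 genes was -0.32 in SW1736 and -1.41 in 8505C, while that of all genes compared was 0.01 and 0.11. A lower level in such a bulk library can come from fewer cells with the transcript or from less of it per cell, which cannot be told apart.

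**Figure D1:**
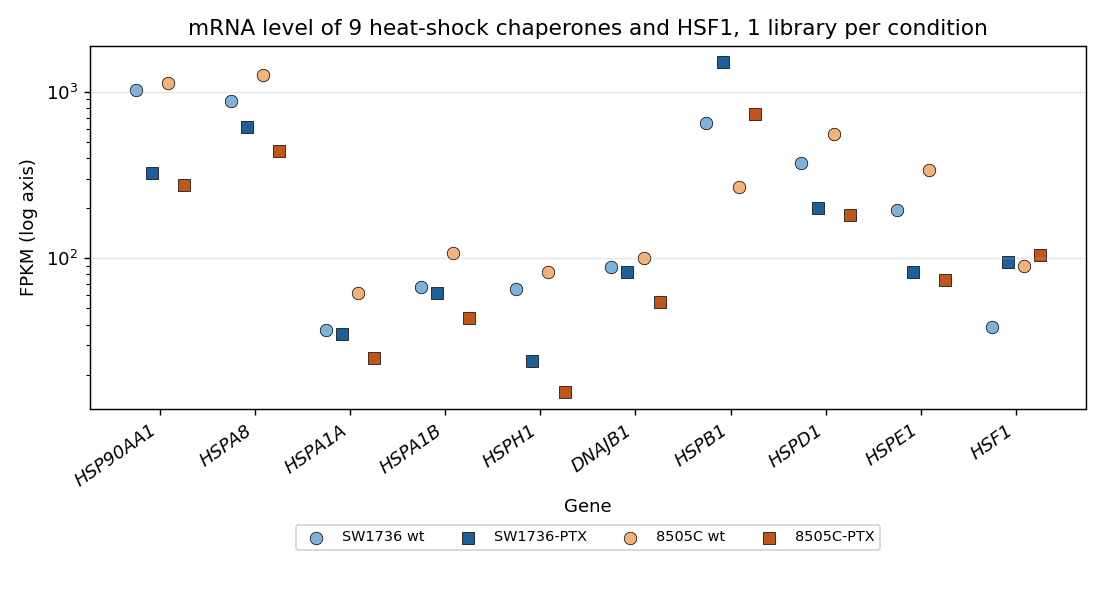
FPKM (log axis) of the 9 chaperone genes and HSF1 in the 4 libraries, with circles for wt and squares for PTX cells, blue for SW1736 and orange for 8505C, and no error bars because there was 1 library per condition. The squares lie below the circles for 8 genes, from HSP90AA1 to DNAJB1 and for HSPD1 and HSPE1, and above them for HSPB1 and HSF1.

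HSP90AA1 encodes the stress-inducible cytosolic HSP90, which matures kinases and steroid receptors (chromosome 14, 102080738 to 102139749, minus strand, hg38; 11 exons in its MANE transcript). SW1736 cells had 1030.2 FPKM as wt and 327 as PTX, and 8505C cells 1121 and 274. The level was thus similar in the wt libraries and 3.15-fold lower in SW1736-PTX and 4.10-fold lower in 8505C-PTX (log2 changes -1.66 and -2.03). Against 8505C wt, the library labelled SW1736-PTX gave -1.78, so HSP90AA1 was called with either reference. Its constitutive paralog HSP90AB1 was at 686, 681, 1252 and 575 FPKM, log2 changes of -0.01 and -1.12. As a result, the HSP90AA1 to HSP90AB1 ratio was 1.50 in SW1736 wt and 0.896 in 8505C wt, and 0.480 and 0.476 in the PTX libraries. Of the 75-base windows of the HSP90AA1 transcript, 6.66% also occur in other annotated genes, all of them pseudogenes.

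The HSP70 genes showed smaller differences in SW1736 than in 8505C. HSPA8, the constitutive HSP70 that also uncoats clathrin vesicles (chromosome 11, 123057492 to 123062335, minus strand), had 879 FPKM as wt and 614 as PTX in SW1736, and 1270.1 and 440.1 in 8505C. The log2 change was -0.52 in SW1736 and -1.53 in 8505C, the latter just past the limit, and -1.05 for SW1736-PTX against 8505C wt. The snoRNA genes SNORD14C, SNORD14D and SNORD14E, of 80 to 88 bp, lie within HSPA8 on the same strand. Their listed values were lower in both PTX libraries, for example SNORD14C at 11.6, 4.45, 18.2 and 3.37 FPKM. Such values cannot be told apart from reads of HSPA8 transcripts and are no separate measure of the snoRNAs.

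HSPA1A (chromosome 6, 31815514 to 31817942) and HSPA1B (31827735 to 31830254) are neighbouring genes on the plus strand that encode the stress-inducible HSP70, each in a single exon. HSPA1A had 37.0 and 35.04 FPKM as wt and PTX in SW1736, and 61.9 and 25.2 in 8505C. HSPA1B had 67.3 and 61.5 FPKM in SW1736, and 108 and 44.1 in 8505C. Their log2 changes were -0.08 and -0.13 in SW1736 and -1.29 and -1.29 in 8505C, and -0.82 and -0.81 for SW1736-PTX against 8505C wt. Of the 75-base windows of HSPA1A, 73.8% also occur in HSPA1B and 33.2% in the lncRNA gene ENSG00000285565, so the division of reads between the pair is uncertain, although the HSPA1B to HSPA1A ratio stayed between 1.74 and 1.82 in the 4 libraries. Summed, they were at 104, 96.6, 170 and 69.3 FPKM, log2 changes of -0.11 and -1.29, and -0.81 for SW1736-PTX against 8505C wt. The tables list each gene at 4 further places, on alternate chromosome 6 sequences, all at 0. HSPA6, an HSP70 gene known for strict induction by stress, did not exceed 0.160 FPKM in any library.

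HSPH1 encodes HSP110, a nucleotide exchange factor of HSP70 that helps to dissolve aggregates (chromosome 13, 31134974 to 31162388, minus strand; 18 exons). SW1736 cells had 65.8 FPKM as wt and 24.2 as PTX, and 8505C cells 83.3 and 15.7. This was 2.72-fold lower in SW1736-PTX and 5.27-fold lower in 8505C-PTX, log2 changes of -1.44, just inside the limit, and -2.40, the lowest of the 10 genes in that line. Against 8505C wt, SW1736-PTX gave -1.78. DNAJB1, the J-domain protein that delivers clients to HSP70 (chromosome 19, 14514764 to 14518559, minus strand; 3 exons), was at 88.8, 82.4, 101 and 54.6 FPKM. Its log2 changes were -0.11 and -0.88, and -0.29 for SW1736-PTX against 8505C wt, so it was called in none of the 3 comparisons. No 75-base window of HSPH1 or DNAJB1 occurs in another gene.

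The HSP70 partners therefore did not keep their proportions. HSPA8 was 13.4 and 15.3 times the HSPH1 level in SW1736 wt and 8505C wt, and 25.4 and 28.0 times in the PTX libraries. The HSPA8 to DNAJB1 ratio was 9.91 and 12.6 in the wt libraries and 7.46 and 8.06 in the PTX libraries, so the wt libraries also differed from each other.

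HSPD1, the chaperonin HSP60, and HSPE1, its lid HSP10, lie head to head on chromosome 2 (HSPD1 from 197486584 to 197500274 on the minus strand, HSPE1 from 197499997 to 197503463 on the plus strand). HSPD1 had 373 FPKM as wt and 202 as PTX in SW1736, and 556 and 183 in 8505C. HSPE1 had 196 and 83.0 FPKM in SW1736, and 341 and 74.0 in 8505C. Both mRNAs were lower in each PTX library, HSPD1 by log2 changes of -0.89 and -1.60 and HSPE1 by -1.24 and -2.20, and against 8505C wt those of SW1736-PTX were -1.46 and -2.04. Between the PTX libraries the log2 difference (8505C-PTX against SW1736-PTX) was -0.14 for HSPD1 and -0.17 for HSPE1. The HSPD1 to HSPE1 ratio was 1.90 and 1.63 in the wt libraries and 2.43 and 2.47 in the PTX libraries. The rows of the pair share 278 bp at their starts, and whether the authors counted reads by strand is not given in the sources used here. Of the 75-base windows, 11.1% of HSPD1 and 40.4% of HSPE1 occur in other genes, for HSPE1 21.3% without the read-through gene HSPE1-MOB4, which did not exceed 0.834 FPKM.

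HSPB1, the small heat-shock protein HSP27 that also binds actin filaments (chromosome 7, 76302558 to 76304297, plus strand; 3 exons), went the other way. SW1736 cells had 652 FPKM as wt and 1501 as PTX, and 8505C cells 268 and 735. The PTX levels were 2.30-fold and 2.74-fold higher, log2 changes of 1.20 and 1.45, neither of them past the limit. The wt lines themselves differed by -1.28 (8505C wt against SW1736 wt), so that against 8505C wt the library labelled SW1736-PTX was called up with 2.48. Of the 75-base windows of HSPB1, 9.39% occur in its pseudogenes.

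HSF1 (chromosome 8, 144291588 to 144314722, plus strand; 13 exons) had 38.8 FPKM as wt and 95.7 as PTX in SW1736, and 89.9 and 105 in 8505C. SW1736 wt was low and the other 3 libraries were close together. The log2 change was 1.30 in SW1736 and 0.22 in 8505C, and 0.09 when SW1736-PTX was set against 8505C wt, so the value in SW1736 rests on which wt library is the reference. DGAT1, which overlaps the end of HSF1 by 140 bp on the other strand, was at 5.42, 15.4, 9.14 and 17.7 FPKM.

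**Figure D2:**
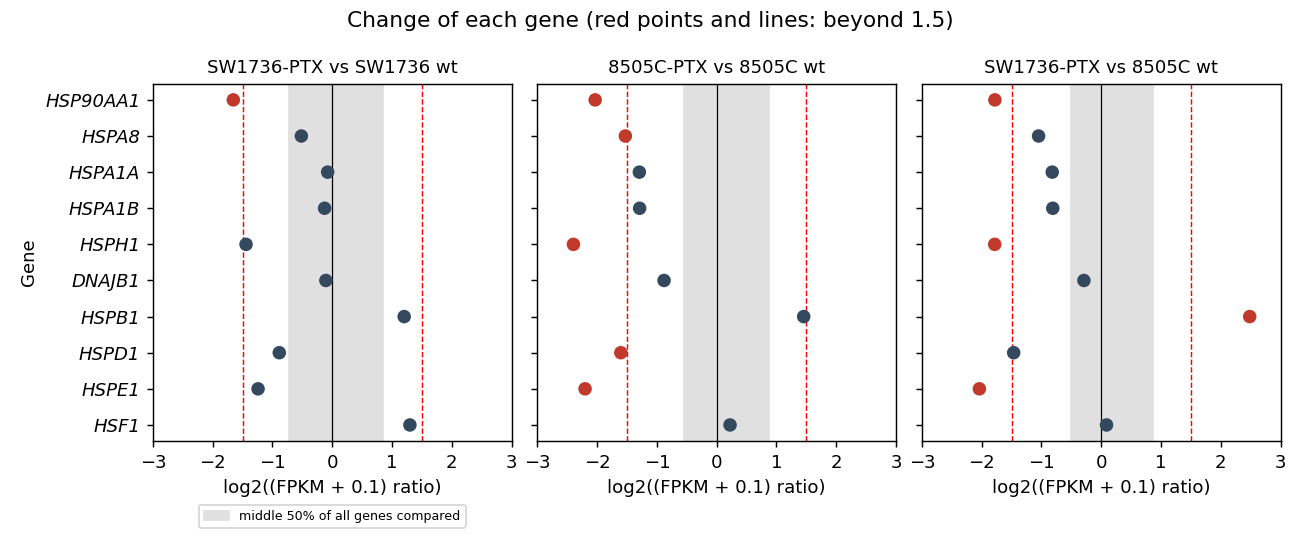
Change of each gene as log2((FPKM + 0.1) ratio) for SW1736-PTX against SW1736 wt, 8505C-PTX against 8505C wt and SW1736-PTX against 8505C wt, with red points beyond 1.5 (dashed lines) and a grey band over the middle 50% of all genes compared. Called points number 1, 5 and 4 of 10 in the panels from left to right.

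With 8505C wt as the reference of SW1736-PTX, 4 of the 10 genes were called, HSP90AA1, HSPH1 and HSPE1 down and HSPB1 up, against 20.4% of the 13824 genes compared in that pair. This comparison and that of 8505C-PTX share the 8505C wt library, so their likeness is not independent. Between the wt libraries, 0 of 10 genes were called, against 17.6% of 13457 genes, and 9 of 10 were higher in 8505C wt, the exception being HSPB1. Between the PTX libraries, 0 of 10 were called, against 7.79% of 13986 genes. There, all 9 chaperones were lower in 8505C-PTX than in SW1736-PTX, from -0.14 for HSPD1 to -1.03 for HSPB1, and HSF1 was higher by 0.13. In each of the 8 lower chaperones the log2 change was more negative in 8505C than in SW1736, each against its own wt library. These differences (8505C minus SW1736) ran from -0.38 for HSP90AA1 to -1.22 for HSPA1A, and they include the difference between the wt libraries. With 8505C wt as the reference of both PTX libraries, they equal the differences between the PTX libraries. For the 8 genes those ran from -0.14 for HSPD1 to -0.62 for HSPH1, with -0.48 for HSPA1A. The difference between the lines was not tested.

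The order of the levels was different in wt and PTX cells. In SW1736 wt the order by FPKM was HSP90AA1, HSPA8, HSPB1, HSPD1, HSPE1, DNAJB1, HSPA1B, HSPH1, HSF1 and HSPA1A. In 8505C wt, HSPA8 and HSP90AA1 led and HSPB1 came after HSPD1 and HSPE1. In both PTX libraries the order was the same for all 10 genes, namely HSPB1, HSPA8, HSP90AA1, HSPD1, HSF1, HSPE1, DNAJB1, HSPA1B, HSPA1A and HSPH1. Neighbours such as HSPE1 and DNAJB1 in SW1736-PTX (83.0 and 82.4 FPKM) or HSPA1B and HSPH1 in SW1736 wt (67.3 and 65.8 FPKM) cannot be ordered without replicates. Counted among all genes of a library, HSP90AA1 ranked 52 in SW1736 wt and 45 in 8505C wt but 182 and 202 in the PTX libraries, and HSPB1 ranked 96 and 214 in the wt libraries and 38 and 97 in the PTX libraries.

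On the TPM scale, in which the transcripts of each library sum to the same total, the 10 genes together held 0.782% of SW1736 wt, 0.667% of SW1736-PTX, 0.915% of 8505C wt and 0.434% of 8505C-PTX. Without HSPB1 these shares were 0.633%, 0.336%, 0.854% and 0.271%. HSP90AA1 and HSPA8 made up 55.7% of the 10 genes' TPM in SW1736 wt and 59.8% in 8505C wt, and 31.1% and 36.6% in the PTX libraries. HSPB1 made up 19.0% and 6.70% in the wt libraries and 49.6% and 37.7% in the PTX libraries.

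**Figure D3:**
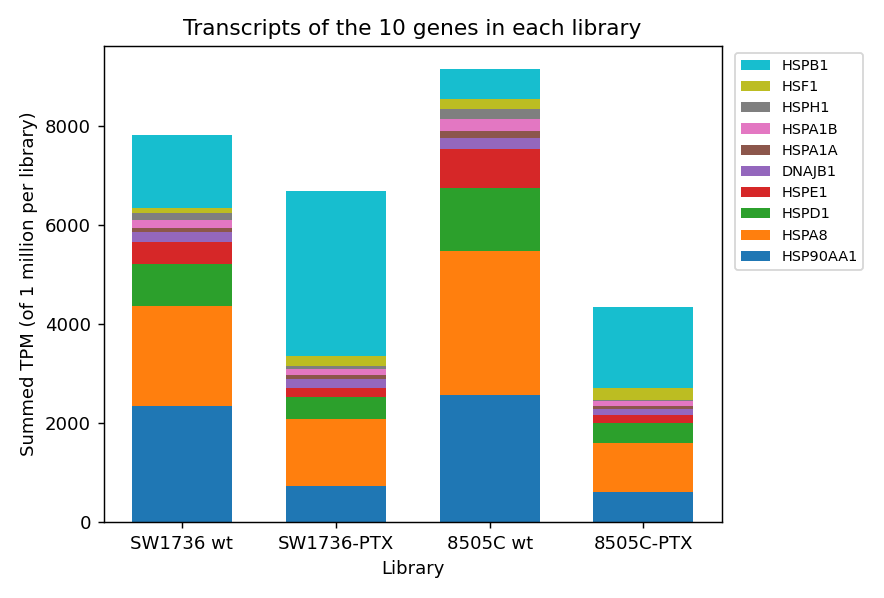
Summed TPM of the 10 genes in each library, stacked by gene, with bars starting at 0. HSPB1 takes 49.6% of the bar of SW1736-PTX and 37.7% of that of 8505C-PTX, against 19.0% and 6.70% in the wt bars.

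The sequences around the start sites were searched for heat-shock elements, the repeats to which HSF1 binds. The RefSeq windows (GRCh38.p14) hold 250 bases before and 50 after a start, and 9 of the 10 genes matched to 13 of them; HSF1 had none. The letters searched, which read the same units on both strands, were GAANNTTC and TTCNNGAA for 2 units and GAANNTTCNNGAA and TTCNNGAANNTTC for 3 units, a 3-unit match always holding 2-unit matches. A 2-unit match was found in 8 of the 13 windows, those of 7 genes, and in 13.5% of all 35116 windows. A 3-unit match was found in 3 of the 13, those of HSP90AA1, HSPA8 and HSPD1, and in 0.490% of all windows. A match is a description of the letters and not evidence of binding. The windows of HSPH1 and HSPE1 held no match. The stretches with matches before the start site are shown for all 7 genes, so that the genes with lower levels can be set beside HSPB1; capitals mark the matched bases and each is written 5′ to 3′ on the gene's strand (hg38).
HSP90AA1, chr14:102087085-102087152, minus strand: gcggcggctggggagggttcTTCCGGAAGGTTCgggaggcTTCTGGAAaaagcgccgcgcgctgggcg
HSPA8, chr11:123062334-123062386, minus strand: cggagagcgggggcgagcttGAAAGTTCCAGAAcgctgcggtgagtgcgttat
HSPA8, chr11:123062159-123062211, minus strand: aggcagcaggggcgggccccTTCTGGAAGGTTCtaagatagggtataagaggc
HSPD1, chr2:197500048-197500090, minus strand: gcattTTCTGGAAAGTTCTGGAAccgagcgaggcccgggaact
HSPA1A, chr6:31815417-31815464, plus strand: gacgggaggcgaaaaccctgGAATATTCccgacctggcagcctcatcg
HSPA1B, chr6:31827613-31827660, plus strand: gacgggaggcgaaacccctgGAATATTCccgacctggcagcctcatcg
DNAJB1, chr19:14518417-14518494, minus strand: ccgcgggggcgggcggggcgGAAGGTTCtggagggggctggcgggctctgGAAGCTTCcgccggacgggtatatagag
HSPB1, chr7:76302471-76302518, plus strand: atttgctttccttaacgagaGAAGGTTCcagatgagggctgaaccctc

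In HSP90AA1 the 3-unit match ran from -88 to -76 relative to the start site, and in HSPA8 the 3-unit matches ran from -230 to -218 and from -55 to -43. The HSPD1 stretch, with 3-unit matches from -245 to -233 and from -240 to -228, lies within the 278 bp that the rows of HSPD1 and HSPE1 share. It is before the start of its RefSeq window but inside the measured HSPD1 row, which begins at 197500274 on the minus strand. The stretches of HSP90AA1 and DNAJB1 and the HSPA8 stretch from 123062159 also lie inside the measured rows. Places before a start thus depend on the start used. Of the 3 genes with a 3-unit match, all were called down in 8505C, and 1 was called down in SW1736 (HSP90AA1). Of all genes compared, 5.89% were called down in 8505C and 10.2% in SW1736. For SW1736-PTX against 8505C wt, HSP90AA1 was called down, while HSPA8 (-1.05) and HSPD1 (-1.46) were not. The share called among all genes with such a match was not computed, and a link between match and change was not tested. HSPH1 and HSPE1, which had the lowest log2 changes in 8505C, held no match in their RefSeq windows. For HSPE1 this depends on the start used. Its GENCODE start is at 197500140 on the plus strand, and the HSPD1 stretch (197500048 to 197500090) lies before that start. HSPB1, with a 2-unit match from -182 to -175, was higher in both lines.

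Other genes of the chaperone system were taken as 10 lists, of which 103 gene names were in the tables. Of these, 93 were compared in SW1736, with 6 called up, 5 called down and a median log2 change of -0.27, and 91 in 8505C, with 4 called up, 12 called down and a median of -0.48. Of all genes compared, 10.2% were called down and 15.7% up in SW1736, and 5.89% down and 15.0% up in 8505C. Against 8505C wt, 90 were compared in the library labelled SW1736-PTX, with 7 called up, 7 called down and a median of -0.32. In that pair, 20.4% of all 13824 genes compared were called in either direction. For the counts of lower and higher genes in the lists below, 49.7% of all genes compared were lower in SW1736-PTX and 45.7% in 8505C-PTX.

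The cytosolic chaperonin TRiC, which folds actin and tubulins, had all 8 subunits compared in each line. In 8505C all 8 were lower, 3 were called down and the median was -1.33. TCP1 was at 350.4 FPKM in 8505C wt and 112 in 8505C-PTX, CCT5 at 493 and 147, and CCT6A at 217 and 58.1. In SW1736, 7 of 8 were lower, none was called and the median was -0.35; against 8505C wt, SW1736-PTX had all 8 lower and 3 called down (TCP1, CCT6A and CCT8), with a median of -1.09. Within SW1736, CCT6A was at 205 and 75.4 FPKM, TCP1 at 211 and 110.0, and CCT5 at 196 and 214. CCT4, nearest to the median in SW1736, was at 169 and 128 FPKM, and CCT2, nearest in 8505C, at 212 and 85.1.

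Of 22 co-chaperones of HSP90 and HSP70, all were compared in each line. In 8505C, 19 were lower and 5 were called down, with a median of -0.64, where 45.7% of all genes compared were lower and 5.89% called down. STIP1, which links HSP70 to HSP90, was at 354 FPKM in 8505C wt and 114 in 8505C-PTX, and FKBP5, an immunophilin of steroid receptor complexes, at 31.1 and 6.31. CHORDC1 was at 57.6 and 18.3, CACYBP at 65.6 and 19.9, and BAG2, a regulator of HSP70 cycling, at 33.0 and 9.88 FPKM. In SW1736, 16 of 22 were lower, 0 were called and the median was -0.37, and these 5 genes had log2 changes between -0.82 (FKBP5) and -0.20 (CHORDC1). Against 8505C wt, 2 were called down in SW1736-PTX (FKBP5 and BAG2), with a median of -0.50. NUDC (134 and 101 FPKM in SW1736) and CDC37, the kinase-specific partner of HSP90 (203 and 141 FPKM in 8505C), were nearest to the medians.

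Among 17 other J-domain genes, 16 were compared in each line, with 1 called down in SW1736 and 3 called down and 1 up in 8505C. DNAJC2, a ribosome-bound J protein, was called down in both lines, with 38.2 and 6.49 FPKM in SW1736 and 25.3 and 5.13 in 8505C. DNAJA1 was at 402 and 142 FPKM in 8505C, just past the limit, and at 204 and 175 in SW1736. DNAJB6, which suppresses aggregation, was at 59.7 and 20.4 FPKM in 8505C and at 118 and 81.6 in SW1736. Its log2 change in SW1736-PTX against 8505C wt was 0.45, the other direction. DNAJB2 was called up in 8505C, from 7.83 to 22.8 FPKM. The list medians were -0.25 and -0.43, and DNAJA2, nearest to the second, was at 36.6 and 27.4 FPKM in 8505C. With 8505C wt as the reference, SW1736-PTX had 7 of 16 higher, 9 lower and 1 called down (DNAJC2), with a median of -0.21.

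Of 12 other HSP70 and HSP110 genes, 10 were compared in SW1736 (1 called up, 3 down, median -0.32) and 8 in 8505C (1 up, 1 down, median -1.22). Against 8505C wt, SW1736-PTX had 1 called up (HSPA12A) and 1 down (HSPA13) of 8, with a median of -0.92. HSPA13, a microsomal HSP70, was called down in both lines, with 16.8 and 0.0452 FPKM in SW1736 and 23.9 and 7.02 in 8505C. HSPA14 was at 40.6 and 9.19 FPKM in SW1736, where it was called down, and at 20.8 and 7.75 in 8505C. HSPA2 was at 3.49 FPKM in SW1736 wt and between 0.159 and 0.209 in the other libraries. HSPA12A was called up in both lines, from 0.621 to 2.51 and from 0.538 to 2.26 FPKM. HSPA4, an HSP110-type exchange factor nearest to the SW1736 median, was at 82.8 and 62.8 FPKM there, and HSPA4L, nearest in 8505C, at 18.6 and 7.86.

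Of 9 genes listed as small heat-shock proteins other than HSPB1, 3 were compared in each line, the others being at or under 0.5 FPKM. CRYAB, the lens crystallin and muscle chaperone, was called up in both lines like HSPB1 in direction, with 0.239 and 4.39 FPKM in SW1736 and 0.705 and 4.73 in 8505C. HSPB8, a partner of BAG3 in autophagy, had 2.14 FPKM in SW1736-PTX against a listed 0 in its wt library, and 0.344 and 0.782 in 8505C. HSPB11, listed here by its symbol only, was lower in both, at 69.1 and 35.01 and at 50.5 and 28.0 FPKM.

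The mitochondrial partners of HSPD1 and HSPE1 held 11 genes, of which 10 were lower in SW1736 and 9 in 8505C, with 0 called in either line and medians of -0.25 and -0.39. HSPA9, the mitochondrial HSP70, had 133 and 112 FPKM as wt and PTX in SW1736, and 199 and 86.8 in 8505C. TRAP1, the mitochondrial HSP90, had 69.0 and 77.7 FPKM in SW1736, and 97.7 and 74.3 in 8505C. The HSP90 genes other than HSP90AA1 (HSP90AB1, HSP90B1 and TRAP1) had 0 calls and medians of 0.17 and -0.39; against 8505C wt the median of SW1736-PTX was -0.33, the other direction. Of 12 chaperones of the endoplasmic reticulum, 8 were higher in SW1736-PTX and 8 lower in 8505C-PTX, with medians of 0.46 and -0.37 (0.51 for SW1736-PTX against 8505C wt). PDIA4, a disulfide isomerase, was called up in SW1736, from 146 to 554 FPKM, and was at 97.1 and 69.5 in 8505C. HYOU1 (69.9 and 92.3 FPKM in SW1736) and CALR (564 and 472 FPKM in 8505C) were nearest to the medians.

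Of 22 other heat-inducible genes, some of which stand in the lists above, 20 were compared in each line, with 4 called up in SW1736 and 1 up and 5 down in 8505C, and medians of -0.21 and -0.93 (-0.63 for SW1736-PTX against 8505C wt). ATF3, a stress-induced transcription factor, was called up in SW1736, with 2.28 and 13.0 FPKM, and had 3.87 and 5.16 in 8505C. IER5, nearest to the 8505C median, was at 30.3 and 15.1 FPKM there. Of 11 other heat-shock factors and HSF1 regulators, 10 were compared in each line and the medians were -0.35 and 0.07 (-0.25 for SW1736-PTX against 8505C wt). HSF2 was at 6.63, 5.97, 11.6 and 8.65 FPKM, HSBP1, which binds HSF1, at 78.4, 46.2, 54.9 and 41.6, and VCP, nearest to the SW1736 median, at 150.4 and 115 in SW1736. EP300, an acetyltransferase that acts on HSF1, was nearest to the 8505C median, at 11.2 and 12.5 FPKM there. HSF4, a factor of the lens, had 2.73 and 0.229 FPKM in SW1736, where it was called down, and 0.130 and 0.755 in 8505C, where it was called up. Against 8505C wt, the HSF4 change of SW1736-PTX was 0.52, not called and in the other direction.

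**Figure D4:**
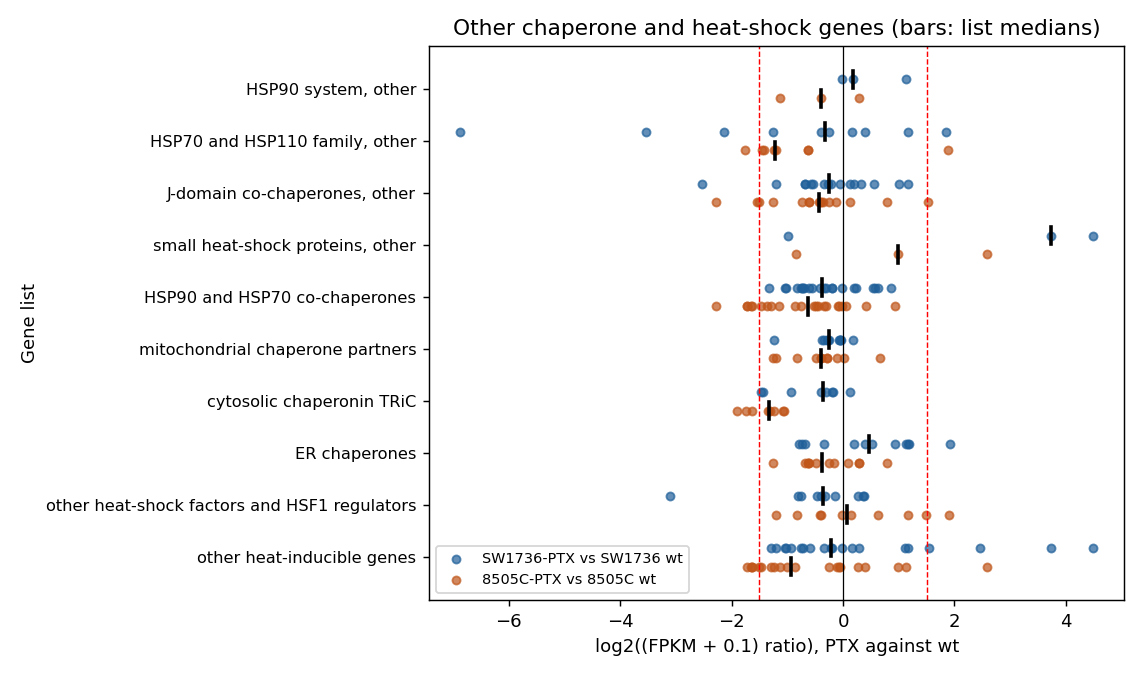
Log2((FPKM + 0.1) ratio) of PTX against wt cells for each compared gene of the 10 lists, in blue for SW1736 and orange for 8505C, with black bars at the list medians and dashed lines at 1.5 in either direction. All 8 TRiC subunits lie below 0 in 8505C, with a median of -1.33, and CRYAB lies above 1.5 in both lines.

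The genes whose pattern over the 4 libraries was nearest to that of HSF1 were taken by the root mean square difference of log2(FPKM + 0.1), centred per gene, among 14682 genes. They were PABPC3 (0.05; 4.71, 11.9, 11.3 and 14.1 FPKM), EIF3E (0.05; 129, 347, 328 and 369) and ZNF7 (0.05; 5.05, 13.8, 12.3 and 13.9). The chaperones were far from it, from 0.77 for DNAJB1 and HSPA1A to 1.40 for HSPH1. The mean pattern of the 9 chaperones was nearest to those of GEMIN5 (0.02; 17.6, 11.8, 21.6 and 8.79 FPKM), GTF2H2C_2 (0.02; 14.2, 9.41, 17.1 and 7.002) and NAE1 (0.02; 44.9, 30.4, 54.0 and 22.6). Of the chaperones themselves, HSPA8 was nearest to that mean (0.10) and HSPB1 farthest (1.27). With 4 libraries, such likeness describes only these values.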

How the data were processed

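One mRNA library per condition was sequenced for the wt and resistant cells. According to the methods and the submitters' processing notes, the authors converted raw data with bcl2fastq 2.20, masked adapters with Cutadapt, trimmed with ERNE, aligned single-end reads of 75 bp to hg38 with STAR and estimated expression with StringTie; the annotation and the setting for strand are not given in the sources used here. The tables deposited by the authors give read coverage per base (a signal not scaled to depth), FPKM, and TPM. They hold no counts, so no count model was used.

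FPKM was summed over the rows of a gene name. Genes above 0.5 FPKM in at least 1 library of a pair were compared, and a log2 change beyond 1.5, with a pseudocount of 0.1, was called; the limits are those of the authors' methods. The log2(FPKM + 0.1) scale understates the change of genes with low values. Coverage times transcript length gave about 2208 reads for the least covered value of the 10 genes (HSPE1 in 8505C-PTX), a counting error of 2.13%, which covers counting error only. Gene structures and 75-base windows came from GENCODE release 44 (hg38) and promoter windows from RefSeq. The genes and lists were chosen with earlier results of these data known. Named genes were the 10 genes, every list gene called in either line, the gene nearest to each list median and the nearest genes by pattern; SNORD14C, SNORD14D, SNORD14E, DGAT1, HSPA6, HSP90AB1, HSPA9, HSPB11, HSF2, HSBP1, CCT8 and ACTB were named after their values were seen. Some items under this rule are not reported here. The calling step was run on simulated data with known changes, which checks the code and says nothing about the spread between cultures. Computations ran in Python 3.11.15 (NumPy 2.4.6 and pandas 2.3.3), and plots were drawn with matplotlib 3.10.9. The alternatives were other pseudocounts, FPKM minimums, units, centring, row choices and limits, and, added after seeing the data, 8505C wt as the reference of SW1736-PTX.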

Additional observations from a re-analysis of the deposited data

Results flagged for a closer look

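None of the 10 genes had changes of opposite sign in the 2 lines. Of the list genes called in at least 1 line, 4 had opposite signs; list genes called in neither line were not considered. The difference between the log2 changes (8505C minus SW1736) was 5.00 for HSF4, which had changes of -3.10 in SW1736 and 1.90 in 8505C, at low levels (at most 2.73 FPKM). It was -2.41 for PDIA4 (1.93 and -0.48), -1.87 for CCT5 (0.13 and -1.74) and 1.80 for DNAJB2 (-0.27 and 1.53). Against 8505C wt, the library labelled SW1736-PTX had log2 changes of 0.52 for HSF4, 0.72 for DNAJB2, -1.20 for CCT5 and 2.51 for PDIA4, so that with this reference the signs were opposite for PDIA4 and not for the other 3. With 1 library per condition, these differences were not tested.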

How the results depend on the processing

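Under 10 alternatives, 55 values of the calls and medians stayed within 1.5-fold and 3 did not. These alternatives changed the pseudocount, the FPKM minimum, the unit, the centring, the rows used, the summing of HSPA1A with HSPA1B and the limit. With a limit of 1 in place of 1.5, 3 genes were called down and 2 up in SW1736, where 18.2% and 22.1% of all genes compared were, and 7 down and 1 up in 8505C, against 12.9% and 22.5%. All 120 values of single genes stayed within 1.5-fold, and centring moved 8505C changes by 0.11, the median of all genes there. Part of the 55 and of the 120 values could not move. Each of the 10 genes had 1 row above 0, so the choice of rows left its value unchanged. All 10 also passed 0.5 FPKM in every library, so the FPKM minimums could not change their calls or medians. With 8505C wt as the reference of SW1736-PTX, chosen after seeing the thyroid factors, 3 genes were called down, 1 was called up and the median was -0.93. With a pseudocount of 1, the genes called down and up over all genes compared were 5.92% and 8.60% in SW1736 and 3.43% and 7.02% in 8505C, and with FPKM above 0.5 in both libraries 7.21% and 7.20%, and 4.92% and 8.47%; the 10 genes' calls were the same genes. Each condition had 1 library and no replicate numbers to pair; a fit over both lines with the line as a block was not run. The cause of these differences was not tested.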

Other observations

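The genes nearest to HSF1 by pattern often lay on the same chromosome, which was noticed after their values were seen. Of the 10 nearest, 6 were on chromosome 8, among them EIF3E (108201743 to 108248730), EIF3H (116644816 to 116755823), ZNF7 (144827518 to 144847508) and RPL7 (73290639 to 73293634), and of the 50 nearest 12, against 503 of the 14682 genes ranked (3.43%). EIF3H had 127 and 339 FPKM as wt and PTX in SW1736, and 285 and 349.6 in 8505C.

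Within 1 Mb of HSF1, 59 of 72 compared genes were higher in SW1736-PTX than in SW1736 wt, with a median log2 change of 0.85, and 47 of 72 were higher in 8505C-PTX than in 8505C wt, with a median of 0.44. Among all genes compared, 49.7% were lower in SW1736-PTX than in SW1736 wt, and 45.7% lower in 8505C-PTX than in 8505C wt. Against 8505C wt, 46 of 73 genes within 1 Mb were higher in the library labelled SW1736-PTX, with a median of 0.31. Between the wt libraries (8505C wt against SW1736 wt) the median was 0.69 over 69 genes, and between the PTX libraries 0.12 over 73. Over all compared genes of chromosome 8, the medians were 0.57 in SW1736 (488 genes), 0.11 in 8505C (476 genes) and 0.57 between the wt libraries (464 genes). For SW1736-PTX against 8505C wt the chromosome 8 median was 0.12 (483 genes). No DNA data were analysed here.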
